A study of Mus musculus with 22 samples.

Results

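Genomic imprinting marks some genes so that mainly the copy from 1 parent is transcribed, and the marks are held as DNA methylation at control regions that each serve a cluster of genes. Many imprinted genes act on the growth of the embryo, and a number of them are turned down in many tissues after birth. As a rule the paternally expressed members of these clusters, among them Igf2, Dlk1, Mest and Rtl1, favour growth. The maternally expressed members, among them Cdkn1c, Grb10, H19 and Meg3, more often restrain growth.

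The 10 imprinted growth genes described here are Peg3, Rtl1, Dlk1, Meg3, Igf2, H19, Cdkn1c, Grb10, Mest and Plagl1, out of 48440 genes in the count table. They were picked by name for the way their CPM, counts scaled to a common library total, differed between the 6 groups of tumours. Their levels and differences between groups are therefore given as a description, without a test. Counts of them past a threshold are given for the record only. The exception is the correlation of 10 pairs of them within groups, which was tested with the group means removed. All 10 were found and all 10 passed the filter on low counts. The counts do not tell the parental copies apart, so they bear on the amount of RNA and not on imprinting itself.

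The series measured polyadenylated RNA in 22 fresh-frozen mouse tumours, 1 library each. Combined tumours carried the SS18-SSX fusion oncogene of human synovial sarcoma (SS18-SSX+/-) and lacked Snf5 (Snf5-/-), with 4 libraries labelled Myf5Cre (N1, N2, N3 and N4) and 4 labelled TATCre (N49, 78774, 78777 and 78780). Snf5-null tumours (SNF5-/-) comprised 3 Myf5Cre libraries (N30, N31 and N33) and 5 TATCre libraries (N1, N49, N43L, N43R and N51). SS18-SSX tumours (SS18-SSX+/-) comprised 3 libraries whose titles name Myf5 (N381, N428 and N460) and 3 with no Cre stated (A, B and N2). Snf5 is the older name of Smarcb1, a subunit of the chromatin remodeller SWI/SNF, and the fusion protein is built into the same complex through its SS18 end. Myf5Cre is Cre recombinase expressed from the Myf5 gene of muscle precursors, and TATCre is a Cre protein that enters cells on contact, so the Cre label also stands for the cells in which the tumour began and for how it was induced. Every tumour with the SS18-SSX fusion was heterozygous for it, age and sex are not in the labels used here, and the strain label is a C57BL name with another number for each sample.

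Total counts ran from 14834030 to 18062578 in combined, from 16059420 to 21807838 in Snf5-null and from 8642648 to 25177722 in SS18-SSX libraries. CPM was computed with library totals adjusted by TMM, the trimmed mean of M values. Smarcb1 itself stood at 0.909 to 3.66 CPM in combined, at 10.6 to 26.9 CPM in Snf5-null and at 47.1 to 111 CPM in SS18-SSX libraries, and Tle1, a diagnostic gene of synovial sarcoma, at 159 to 221, 27.5 to 46.7 and 207 to 398 CPM in the same order. Of RNA from other cells, 8 leucocyte markers summed to 26.3 to 250 CPM in combined, 639 to 2605 CPM in Snf5-null and 36.3 to 241 CPM in SS18-SSX libraries, with Cd3e at 0 in all 4 combined Myf5Cre libraries. The sum of 8 mature muscle markers ran from 2.13 CPM in N460 of the SS18-SSX Myf5Cre group to 15726 CPM in N43L of the Snf5-null TATCre group. In bulk tumour, fewer cells of a type and less RNA per cell cannot be told apart. The number series in the sample descriptions divides the libraries so that each SS18-SSX group has its own and all other libraries share another. That series therefore cannot be told apart from the SS18-SSX genotype or, between the SS18-SSX groups, from the Cre label. Tumours N43L and N43R have a tag in common, and nothing in the labels says whether any of the 22 came from separate animals. The p-values below therefore rest on a spread between tumour libraries that may not be a spread between animals.

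Rtl1 is shown first by sequence because its exon is read on the opposite strand by a chain of microRNAs made from the Meg3 side of the locus. The count table has 6 rows for hairpins on the strand opposite to Rtl1, with 11 mature arms in RefSeq (GRCm38.p6), and a row for Mir3071 on the same strand, which had 0 counts. The full complement of all 11 arms was found in the only GENCODE M21 transcript of Rtl1, and the 11 seeds were all different. In mouse, microRNAs of this set are known to direct cleavage of the Rtl1 transcript. The 6 arms below, 1 for each hairpin, are written 5′ to 3′ with the seed, bases 2 to 8, in capitals, from the plus strand of chromosome 12 and in the order of the hairpins.
mmu-miR-431-5p: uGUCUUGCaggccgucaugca
mmu-miR-433-3p: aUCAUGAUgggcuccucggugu
mmu-miR-127-3p: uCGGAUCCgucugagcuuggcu
mmu-miR-434-3p: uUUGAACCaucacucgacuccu
mmu-miR-432: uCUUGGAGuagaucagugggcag
mmu-miR-136-5p: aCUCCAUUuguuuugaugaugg

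Mest carries miR-335 in an intron and H19 carries miR-675 in an exon, and their 5p arms are shown in the same way because the Mir335 row is set beside Mest below. The Mir335 hairpin lies on the plus strand of chromosome 6 (GRCm38.p6) and the Mir675 hairpin on the minus strand of chromosome 7.
mmu-miR-335-5p: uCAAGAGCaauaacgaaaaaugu
mmu-miR-675-5p: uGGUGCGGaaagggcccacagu

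Peg3 shares its promoter with Usp29, its neighbour on the other strand, and the window is shown because both genes are compared below. RefSeq (GRCm38.p6) places the start sites 164 bases apart, and the windows from 250 bases before to 50 bases after each start share 263 bases. The Peg3 window, chr7:6730370-6730669 on the minus strand, is written 5′ to 3′ with matches to CCAAT, read on both strands, in capitals. It holds 2 matches to CCAAT, none to GGGCGG and none to TATAAA. Of 32851 RefSeq promoter windows of the same length, 37.4% hold CCAAT, 35.7% hold GGGCGG and 13.6% hold TATAAA on either strand.
Peg3: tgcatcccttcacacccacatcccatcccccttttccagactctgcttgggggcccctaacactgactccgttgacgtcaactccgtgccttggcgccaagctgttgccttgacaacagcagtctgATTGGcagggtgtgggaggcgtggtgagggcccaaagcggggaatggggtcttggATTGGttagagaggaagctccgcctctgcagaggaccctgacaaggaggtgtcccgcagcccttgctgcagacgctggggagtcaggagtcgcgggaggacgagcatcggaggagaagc

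Windows were found for 7 of the 10 genes. Grb10 has a pair of RefSeq windows of unlike make-up, 1 with 80.0% G and C and 5 GGGCGG matches and 1 with 52.3% and none, and the count table has a single row for both.

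**Figure D1:**
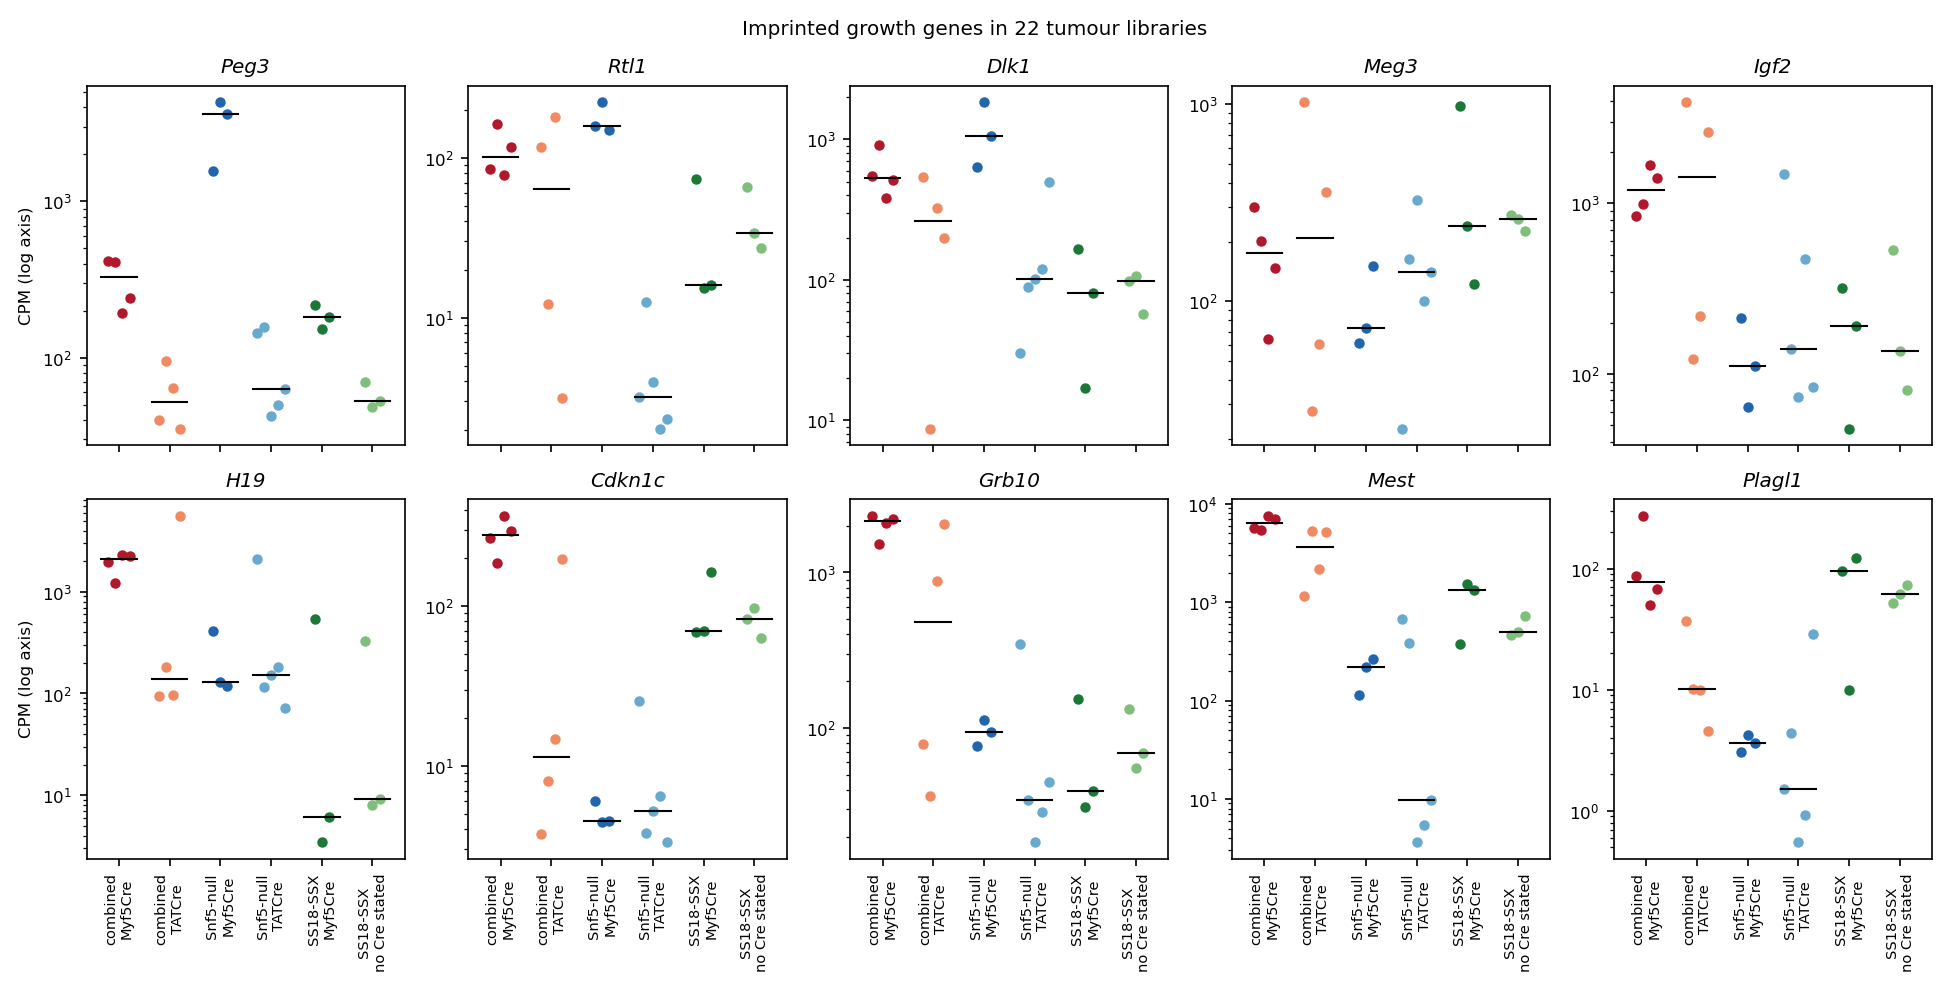
CPM of the 10 genes on log axes, 1 point per library in the 6 groups, with a line at the group median. Peg3 was highest in the 3 Snf5-null Myf5Cre libraries (1566 to 4298 CPM), Mest, Grb10 and Cdkn1c were high in all 4 combined Myf5Cre libraries, and Cdkn1c and Plagl1 were low in most Snf5-null libraries.

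Peg3 encodes a large zinc finger protein that is known to mark muscle and other tissue progenitors. It lies on chromosome 7 (6703892 to 6730431, minus strand, GRCm38, the GENCODE M21 annotation used for all gene positions here). In combined tumours Peg3 stood at 417, 410.2, 193 and 242 CPM with Myf5Cre and at 39.8, 95.2, 63.9 and 35.1 CPM with TATCre. In Snf5-null tumours it reached 1566, 4298 and 3602 CPM with Myf5Cre, against 144, 158, 42.2, 49.5 and 62.7 CPM with TATCre. SS18-SSX libraries held 217, 152 and 181 CPM with Myf5Cre and 69.6, 48.6 and 53.0 CPM with no Cre stated. Within each genotype the Myf5Cre libraries lay above all the others with no overlap, and the 3 Snf5-null Myf5Cre libraries lay above every other library of the series. Group means were 316 ± 115 CPM with Myf5Cre and 58.5 ± 27.5 CPM with TATCre in combined tumours (SD, n = 4 each). In Snf5-null tumours they were 3156 ± 1419.7 CPM with Myf5Cre (SD, n = 3) and 91.3 ± 55.3 CPM with TATCre (SD, n = 5). The fitted log2 fold change of Myf5Cre over TATCre was 5.11 ± 0.49 (SE) in Snf5-null and 2.43 ± 0.46 in combined tumours, and that of Myf5Cre over no Cre stated was 1.69 ± 0.52 in SS18-SSX tumours. Combined over Snf5-null was -1.98 ± 0.33 for Peg3, with -3.32 among Myf5Cre and -0.64 among TATCre groups. Snf5-null over SS18-SSX was likewise 2.39 ± 0.37, with 4.10 among Myf5Cre groups and 0.68 between TATCre Snf5-null tumours and SS18-SSX tumours with no Cre stated.

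The neighbours of Peg3 were not among the chosen genes and were tested, although they share its locus, Usp29 shares its promoter window, and the list that holds them was drawn up with results known, so the tests are not independent of the choice of Peg3. Usp29, a ubiquitin protease gene that starts beside Peg3 and is read the other way, rose in Myf5Cre over TATCre tumours in both genotypes. In Snf5-null tumours Usp29 stood at 11.1, 27.1 and 31.6 CPM with Myf5Cre, against 0 to 1.46 CPM with TATCre (log2 fold change 5.90 ± 1.0, SE, edgeR adjusted p = 0.0038). In combined tumours it stood at 3.8 to 8.93 CPM with Myf5Cre, against 0 to 0.493 CPM with TATCre (4.69 ± 1.05, edgeR adjusted p = 0.0299). Zim1, a zinc finger gene 7.4 kb from Peg3, averaged 157 ± 73.4 CPM with Myf5Cre (SD, n = 3) and 3.12 ± 2.59 CPM with TATCre (n = 5) in Snf5-null tumours, a rise of 5.66 ± 1.18 (edgeR adjusted p = 0.0116). In combined tumours the Zim1 difference of 3.58 ± 1.19 did not pass (edgeR adjusted p = 0.114), with libraries N1 and N2 at 32.1 and 14.8 CPM and N3 and N4 at 0.621 and 1.15 CPM. The Zim1 rise in Snf5-null tumours was lost without N31 or without N33 (5.53 and 5.40), and the Usp29 rise in combined tumours was lost without N1, N2, N3 or N4 of combined Myf5Cre or N49 of combined TATCre (4.45 to 4.87). In Snf5-null tumours the Usp29 change was 7.52 without N49 of TATCre.

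**Figure D2:**
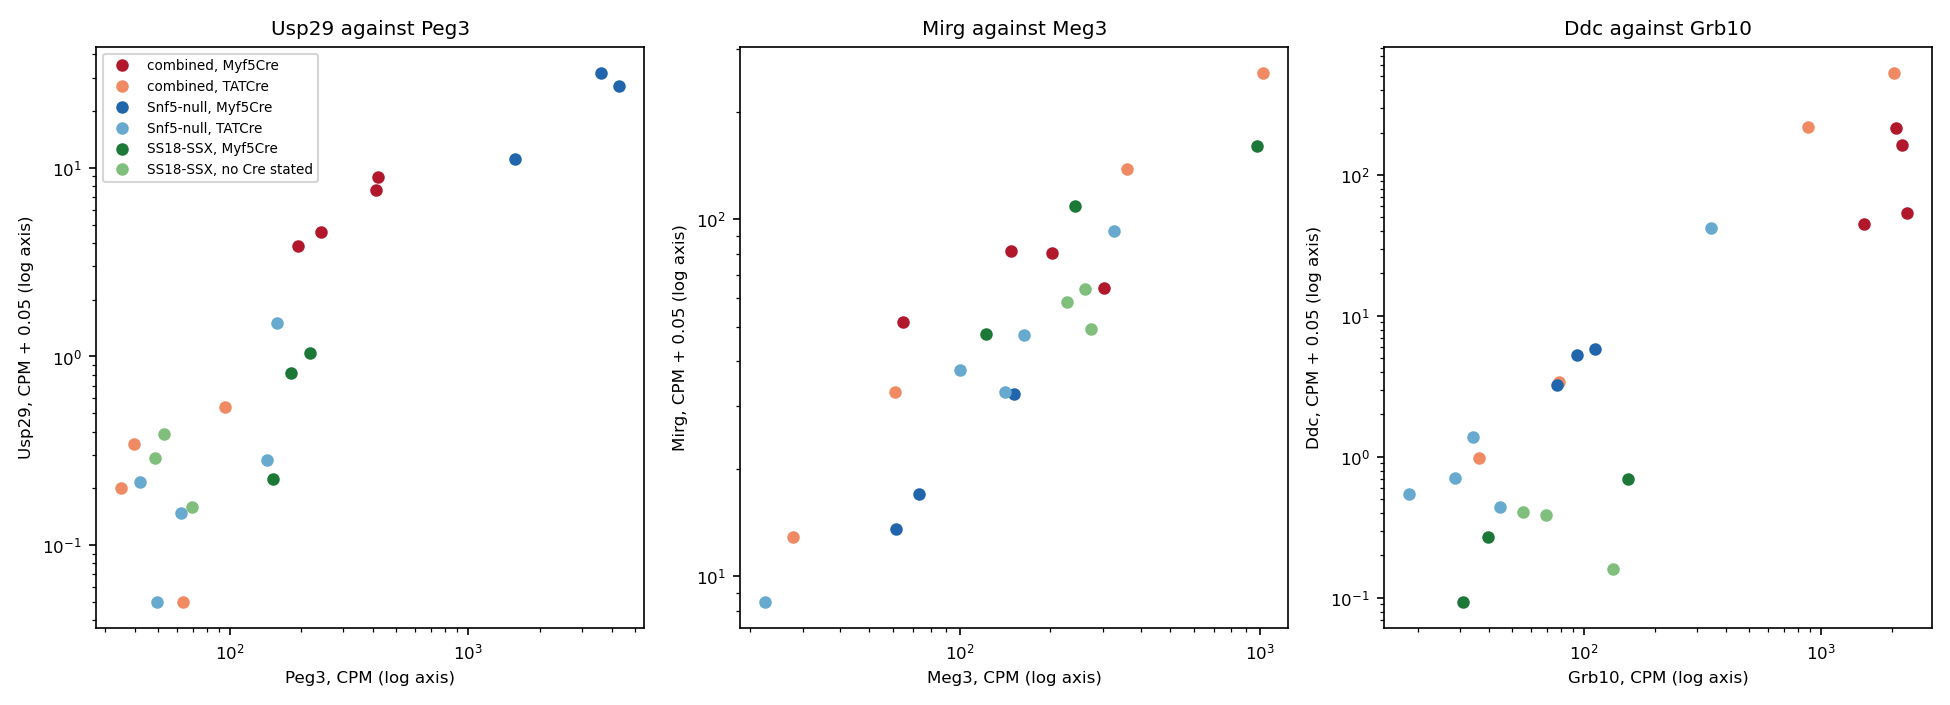
CPM of a neighbouring gene against CPM of Peg3, Meg3 and Grb10, 1 point per library, on log axes with 0.05 CPM added to the neighbour. The 3 Snf5-null Myf5Cre libraries are highest for Peg3 and for Usp29 (11.1 to 31.6 CPM), and Ddc stands at 42.0 to 525 CPM in the 7 libraries with at least 346 CPM of Grb10.

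The Dlk1-Dio3 cluster on chromosome 12 holds Dlk1 (109452823 to 109463336, plus strand), a transmembrane relative of the Notch ligands that marks progenitors, Rtl1 (109589193 to 109600330, minus strand), a gene derived from a retrotransposon, and Meg3 (109541001 to 109571726, plus strand), a long noncoding RNA. Dlk1 and Rtl1 are read from the paternal copy and Meg3 from the maternal one. Dlk1 stood at 545, 907, 385 and 513 CPM in combined Myf5Cre and at 538, 8.69, 323 and 200.1 CPM in combined TATCre libraries. In Snf5-null tumours it stood at 633, 1838 and 1062 CPM with Myf5Cre, against 30.3, 89.4, 102, 120.4 and 499.6 CPM with TATCre. SS18-SSX libraries stood at 166, 17.0 and 80.1 CPM with Myf5Cre and at 98.6, 106 and 56.8 CPM with no Cre stated. All 7 Myf5Cre libraries that lacked Snf5 thus had more Dlk1 than any SS18-SSX library, whereas 4 of the 5 Snf5-null TATCre libraries lay within the SS18-SSX range and library 78774 of combined TATCre lay below it. Fitted log2 fold changes of Dlk1 were 2.18 ± 0.71 (SE) for combined over SS18-SSX, 2.35 ± 0.72 for Snf5-null over SS18-SSX and -0.17 ± 0.62 for combined over Snf5-null. Myf5Cre over TATCre was 2.81 ± 0.88 in Snf5-null tumours, with 2.35 without N31 and 3.81 without N51.

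Rtl1 had its widest gap within the Snf5-null tumours. It stood at 159, 222 and 148 CPM with Myf5Cre, against 3.2, 12.6, 3.96, 2.02 and 2.34 CPM with TATCre. The log2 fold change was 5.19 ± 0.93 (SE), with 5.0 without N31 and 5.96 without N49. The lowest Myf5Cre library was far above the highest TATCre library. In combined tumours Rtl1 stood at 85.5, 162, 77.7 and 116 CPM with Myf5Cre and at 116, 12.1, 179.6 and 3.15 CPM with TATCre, where 78774 and 78780 were as low as the Snf5-null TATCre libraries and N49 and 78777 were not. SS18-SSX libraries ran from 15.3 to 73.6 CPM. Combined over Snf5-null averaged 1.67 ± 0.62 for Rtl1, but it was -0.68 among Myf5Cre groups and 4.01 among TATCre groups, so the direction depended on the Cre label.

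Meg3 showed no such split by Cre label. It stood at 302, 202, 64.6 and 148 CPM in combined Myf5Cre and at 1023, 27.8, 60.6 and 359 CPM in combined TATCre libraries. Snf5-null libraries held 61.5, 73.2 and 151 CPM with Myf5Cre and 22.5, 164, 327, 100.1 and 141 CPM with TATCre. SS18-SSX libraries held 976, 242 and 122 CPM with Myf5Cre and 274, 262 and 227 CPM with no Cre stated. The groups overlapped in all 6 comparisons. The ratio of Dlk1 to Meg3 counts within a library, not scaled to gene length, was 7.04 to 25.1 in Snf5-null Myf5Cre, 0.313 to 3.54 in Snf5-null TATCre and 0.0702 to 0.654 in SS18-SSX libraries. It ran from 1.81 to 5.95 in combined Myf5Cre and from 0.313 to 5.33 in combined TATCre libraries.

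The kit selects long polyadenylated RNA and not mature microRNA, and the hairpin rows over Rtl1 had few counts. Their sum was 17 to 46 counts in combined Myf5Cre, 11 to 155 in combined TATCre, 15 to 25 in Snf5-null Myf5Cre, 2 to 54 in Snf5-null TATCre, 14 to 49 in SS18-SSX Myf5Cre and 27 to 40 in SS18-SSX libraries with no Cre stated. The highest sum, 155 in N49 of combined TATCre, stood beside 13972 counts of Meg3 and 1579 of Rtl1. The lowest, 2 in N1 of Snf5-null TATCre, stood beside 387 counts of Meg3 and 55 of Rtl1. Where Meg3 and Rtl1 differed, N43L of Snf5-null TATCre had 54 hairpin counts beside 5939 of Meg3 and 72 of Rtl1. N31 of Snf5-null Myf5Cre had 17 beside 1471 of Meg3 and 4451 of Rtl1. Which gene the hairpin rows followed was not tested. The RNA kit keeps the strand, but the sources used here do not give the strand setting of the counting step, so reads of the hairpins and of Rtl1 may be mixed. Over 22 libraries the genes whose departures from the group mean were most like those of Meg3 were B830012L14Rik (r = 0.97), Mirg (r = 0.94) and Gm26945 (r = 0.94), all noncoding RNAs of the same cluster 68615 to 158038 bases away. These correlations, as those below for other genes, are the 3 highest among all tested genes and are a description without a test.

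Igf2, the fetal growth factor, lies on chromosome 7 (142650766 to 142666816, minus strand) beside H19 (142575529 to 142578143, minus strand), a noncoding RNA, and both use the same enhancers. Igf2 is read from the paternal and H19 from the maternal copy. Igf2 stood at 845, 989, 1673 and 1401 CPM in combined Myf5Cre libraries and at 3912, 122, 218 and 2632 CPM in combined TATCre libraries. In Snf5-null tumours it stood at 213, 64.2 and 111 CPM with Myf5Cre and at 1484, 139, 72.9, 469 and 84.0 CPM with TATCre. SS18-SSX libraries ran from 47.6 to 534 CPM with a median of 164. The 4 combined Myf5Cre libraries stood above all Snf5-null Myf5Cre and all SS18-SSX libraries, and N1 was the exception among Snf5-null TATCre libraries. Combined over Snf5-null was 2.59 ± 0.79 (log2 fold change, SE) for Igf2. Leaving out 1 library gave from 2.26 (without N49 of combined TATCre) to 3.28 (without N1 of Snf5-null TATCre). Combined over SS18-SSX was 2.75 ± 0.86. It ran from 2.42 (without N49 of combined TATCre) to 3.38 (without A of the SS18-SSX group with no Cre stated).

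H19 was the gene most spread within groups, with an SD of 2.38 on the log2 scale, against a median of 0.64 over all tested genes. It stood at 1984, 1225, 2325 and 2256 CPM in combined Myf5Cre libraries and at 94.2, 181, 97.7 and 5599 CPM in combined TATCre libraries. Snf5-null libraries held 409.7, 129 and 119 CPM with Myf5Cre and 2095, 116, 151, 183 and 72.8 CPM with TATCre. In SS18-SSX tumours H19 stood at 539, 3.44 and 6.13 CPM with Myf5Cre and at 325, 8.08 and 9.24 CPM with no Cre stated. Each of 4 groups thus had 1 library far above the others, 78780, N1, N381 and A. These 4 libraries were also the highest of their groups for the sum of 5 myogenic progenitor markers (Pax7, Myf5, Myod1, Myog and Des), with 378, 2214, 412 and 519 CPM, against 24.9 to 149, 61.3 to 610, 55.9 to 66.6 and 57.0 to 74.2 CPM in the rest of each group. In the combined Myf5Cre group, where all 4 libraries were high in H19, that sum was 7.53 to 72.6 CPM. For the sum of 8 mature muscle markers N381 and A were again the highest of their groups (3234 and 6678 CPM). Libraries 78780 and N1 were not, at 309 CPM against 1468 CPM in N49 and at 2055 CPM against 15726 CPM in N43L. The part of muscle RNA in the H19 levels was not tested. The genes most like H19 over 22 libraries were A930003A15Rik (r = 0.90), Cdh15 (r = 0.90), the muscle cadherin, and Myh14 (r = 0.89). For H19 combined over SS18-SSX was 3.56 ± 1.36 (log2 fold change, SE), with 1.81 without 78780, 6.17 without N381 and 5.45 without A, and that of combined over Snf5-null was 2.33 ± 1.19, with 0.59 without 78780 and 3.41 without N1.

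**Figure D3:**
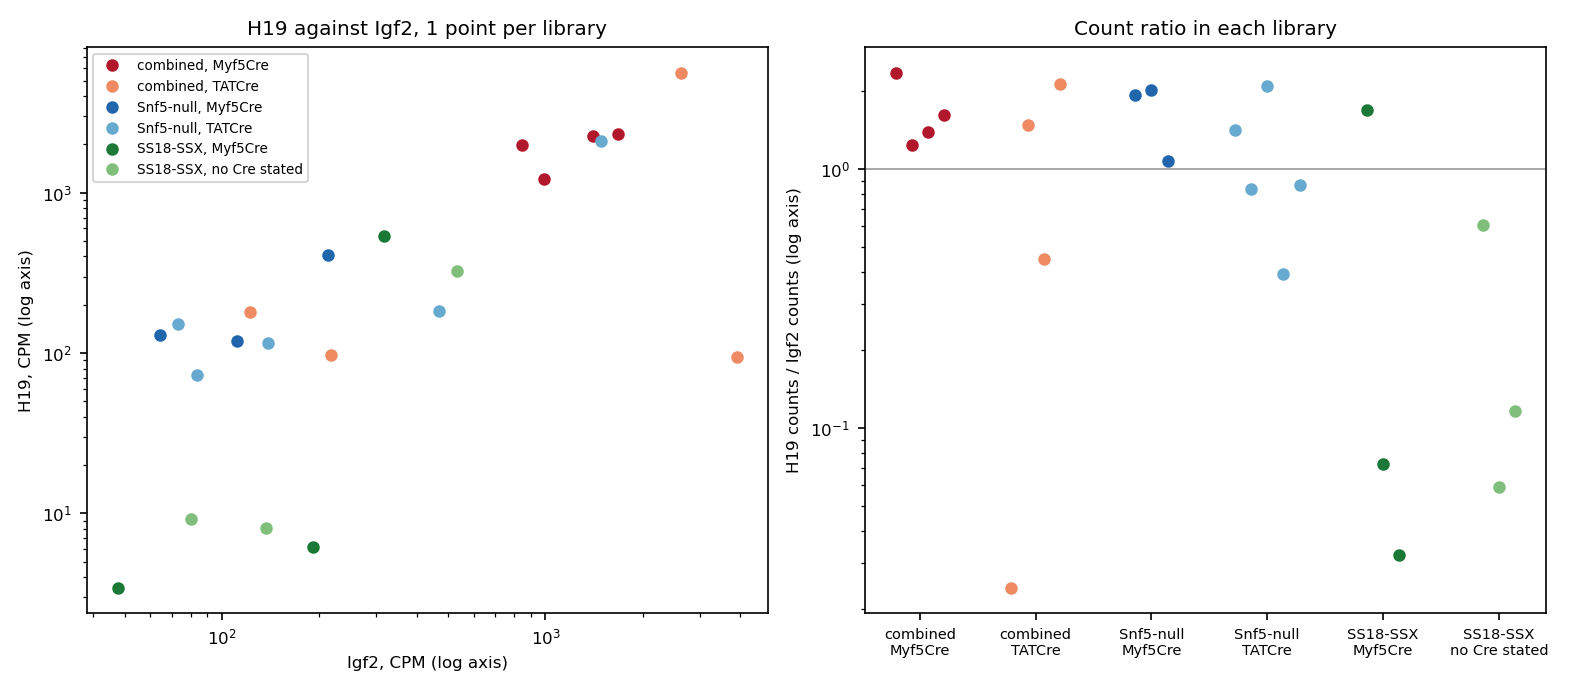
H19 against Igf2 in CPM on log axes (left) and the ratio of their counts on a log axis by group (right), 1 point per library. Combined TATCre library N49 has the most Igf2 (3912 CPM) and the lowest ratio (0.0241), and 4 SS18-SSX libraries have ratios of 0.0321 to 0.116.

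Not scaled to gene length, the ratio of H19 to Igf2 counts ranged from 1.24 to 2.35 in combined Myf5Cre libraries and was 0.0241, 1.48, 0.448 and 2.13 in combined TATCre libraries. In Snf5-null tumours it was 1.07 to 2.01 with Myf5Cre and 0.391 to 2.08 with TATCre. In SS18-SSX tumours it was 1.69, 0.0722 and 0.0321 with Myf5Cre and 0.609, 0.0588 and 0.116 with no Cre stated. SS18-SSX libraries other than N381 and A therefore had far less H19 per Igf2 count than all libraries of the other genotypes except N49 of combined TATCre. Igf2os, a transcript over Igf2 on the other strand, was the gene most like Igf2 (r = 0.92 over 22 libraries), and the exons of the pair share 98 bases, 1.7% of the Igf2 exon bases, whose reads could be counted for either with the strand setting unknown. The Mir675 row within H19 had 0 counts in every group, and the Mir483 row within Igf2 had 0 to 4 counts per library.

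Cdkn1c encodes p57, an inhibitor of cyclin-dependent kinases that is read from the maternal copy, and lies on chromosome 7 (143458339 to 143461050, minus strand). An antisense gene, Gm44732, overlaps 30.7% of its exon bases. Cdkn1c was low throughout the Snf5-null tumours. Combined Myf5Cre libraries held 266, 186, 367 and 294 CPM and combined TATCre libraries 3.73, 8.02, 14.8 and 197 CPM. Snf5-null libraries held 6.04, 4.43 and 4.5 CPM with Myf5Cre and 25.3, 3.8, 5.23, 6.5 and 3.32 CPM with TATCre. SS18-SSX libraries held 68.9, 70.0 and 163 CPM with Myf5Cre and 83.1, 97.2 and 63.1 CPM with no Cre stated. All 8 Snf5-null libraries lay below all 6 SS18-SSX libraries, and 3 of the 4 combined TATCre libraries lay within the Snf5-null range. The log2 fold change of Cdkn1c was -3.77 ± 0.74 (SE) for Snf5-null over SS18-SSX and 4.23 ± 0.74 for combined over Snf5-null, the second of these 2.95 without 78780. Among Myf5Cre groups combined over Snf5-null was 5.80, and among TATCre groups it was 2.66 with 78780 as the library that stood apart. The leucocyte marker sum moved the opposite way, at 639 to 2605 CPM in Snf5-null, at 26.3 to 250 CPM in combined and at 36.3 to 241 CPM in SS18-SSX libraries, and its part in the Cdkn1c difference, and in that of Plagl1 below, was not tested.

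Plagl1 encodes a zinc finger factor that in mouse is known to regulate other imprinted genes, Igf2, H19, Cdkn1c and Dlk1 among them. It lies on chromosome 10 (13060504 to 13131694, plus strand). Plagl1 stood at 87.6, 273, 49.7 and 67.5 CPM in combined Myf5Cre and at 36.8, 10.2, 9.93 and 4.58 CPM in combined TATCre libraries, with no overlap between the pair of groups. Snf5-null libraries held 3.05, 4.23 and 3.63 CPM with Myf5Cre and 1.51, 4.43, 0.551, 0.929 and 29.0 CPM with TATCre. SS18-SSX libraries held 96.0, 9.87 and 123 CPM with Myf5Cre and 51.8, 61.4 and 72.7 CPM with no Cre stated. N51 was the only Snf5-null library above 4.43 CPM. Plagl1 had a log2 fold change of -3.73 ± 0.83 (SE) for Snf5-null over SS18-SSX, with -4.74 without N51 and -3.31 without N460. For combined over Snf5-null it was 3.05 ± 0.78, with 2.65 without N2 of combined Myf5Cre and 4.10 without N51. Combined over Snf5-null was 5.04 among Myf5Cre and 1.07 among TATCre groups.

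Grb10 encodes an adaptor protein that binds the insulin and IGF1 receptors and restrains their signal, and lies on chromosome 11 (11930508 to 12038683, minus strand). It stood at 2316, 1519, 2076 and 2204 CPM in combined Myf5Cre and at 78.6, 36.3, 888 and 2047 CPM in combined TATCre libraries. Snf5-null libraries held 77.1, 112 and 93.6 CPM with Myf5Cre and 346, 34.3, 18.4, 28.6 and 44.6 CPM with TATCre. SS18-SSX libraries ran from 31.1 to 154 CPM with a median of 62.5. Thus 6 of 8 combined libraries stood above all 14 others, and N49 and 78774 stood among them. The log2 fold change of Grb10 was 3.72 ± 0.81 (SE) for combined over Snf5-null, with 3.16 without 78780 and 4.58 without N1 of Snf5-null TATCre. For combined over SS18-SSX it was 3.95 ± 0.88. Ddc, the gene for aromatic amino acid decarboxylase 32.4 kb away, was most like Grb10 over 22 libraries (r = 0.93). Ddc, a neighbour tested with results for Grb10 already known, rose in combined over SS18-SSX tumours, at 153 ± 175 CPM and 0.286 ± 0.215 CPM (SD, n = 8 and 6, log2 fold change 8.97 ± 1.67, edgeR adjusted p = 0.000414). It also rose in combined over Snf5-null tumours, where Snf5-null libraries averaged 7.39 ± 14.2 CPM (SD, n = 8, log2 fold change 4.52 ± 1.23, edgeR adjusted p = 0.00585), a call lost among Myf5Cre groups alone (4.65). The second Ddc change was 6.41 without N1 of Snf5-null TATCre and 3.89 without 78780, and the first was 8.34 without 78780. Ddc stood at 3.37 and 0.925 CPM in N49 and 78774 of combined TATCre, the libraries low in Grb10, and at 220.1 and 525 CPM in 78777 and 78780. Cobl on the other side of Grb10, at 197.9 kb, went the other way and fell to 1.34 ± 1.13 CPM in combined, against 22.8 ± 7.57 CPM in SS18-SSX tumours (SD, n = 8 and 6, log2 fold change -4.06 ± 0.85, edgeR adjusted p = 0.00101).

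Mest encodes an enzyme of the hydrolase fold that is read from the paternal copy in mesoderm, and lies on chromosome 6 (30723547 to 30748465, plus strand). It had the highest CPM of the 10 genes in the combined Myf5Cre group, also per kilobase of exon (1623 CPM per kb on average, against 792 for H19 in the same group). Combined Myf5Cre libraries held 5642, 5434, 7546 and 6989.9 CPM and combined TATCre libraries 1164, 5266, 2194 and 5134 CPM. Snf5-null libraries held 113, 220 and 266 CPM with Myf5Cre and 677, 387, 3.63, 5.41 and 9.76 CPM with TATCre. SS18-SSX libraries held 373, 1529.8 and 1329.6 CPM with Myf5Cre and 468, 498 and 718 CPM with no Cre stated. Every combined library stood above every Snf5-null library, the 4 combined Myf5Cre libraries stood above the 4 combined TATCre ones, and N43L, N43R and N51 were far below N1 and N49 of the same group. The log2 fold change of Mest was 4.50 ± 0.95 (SE) for combined over Snf5-null, with 4.22 without N30 and 5.10 without N1 of Snf5-null TATCre. For combined over SS18-SSX it was 2.59 ± 0.91. The row of Mir335, whose hairpin lies in an intron of Mest, summed to 271 and 147 counts over the combined Myf5Cre and TATCre libraries, 3 and 16 over the Snf5-null ones, and 199 and 23 over SS18-SSX libraries with Myf5Cre and with no Cre stated. Copg2 overlaps 23.1% of the Mest exon bases on the other strand, so some reads of either could be counted for the other. Copg2 levels were 114 ± 40.8 CPM in combined and 66.4 ± 9.56 CPM in Snf5-null tumours (SD, n = 8 each).

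The 10 genes together took 1.12% to 1.47% of all counts in combined Myf5Cre and 0.384% to 1.45% in combined TATCre libraries. They took 0.313% to 0.686% in Snf5-null Myf5Cre and 0.0701% to 0.424% in Snf5-null TATCre libraries. In SS18-SSX libraries the share was 0.244% to 0.352% with Myf5Cre and 0.137% to 0.222% with no Cre stated. The highest shares belonged to the 4 combined Myf5Cre libraries and 78780, and 4 of the 5 Snf5-null TATCre libraries had the lowest. Within groups all 10 genes but Peg3 were more spread than most genes. The SD of log2 CPM was 0.65 for Peg3, where 51.1% of tested genes had a lower one, and 1.26 (Cdkn1c) to 2.38 (H19) for the other 9, and 86.4% to 99.3% of tested genes had a lower SD than these. The highest CPM over the lowest was 2076 for Mest, 1629 for H19 and 45.5 for Meg3, the extremes of the 10. Outside their own clusters, the genes most like the others over 22 libraries were Sema3e for Peg3 (r = 0.82), Foxp2 for Dlk1 (r = 0.89), Pnpla3 for Rtl1 (r = 0.85), Arhgef28 for Cdkn1c (r = 0.94), Rcor2 for Mest (r = 0.92) and Rprd2 for Plagl1 (r = 0.86).

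**Figure D4:**
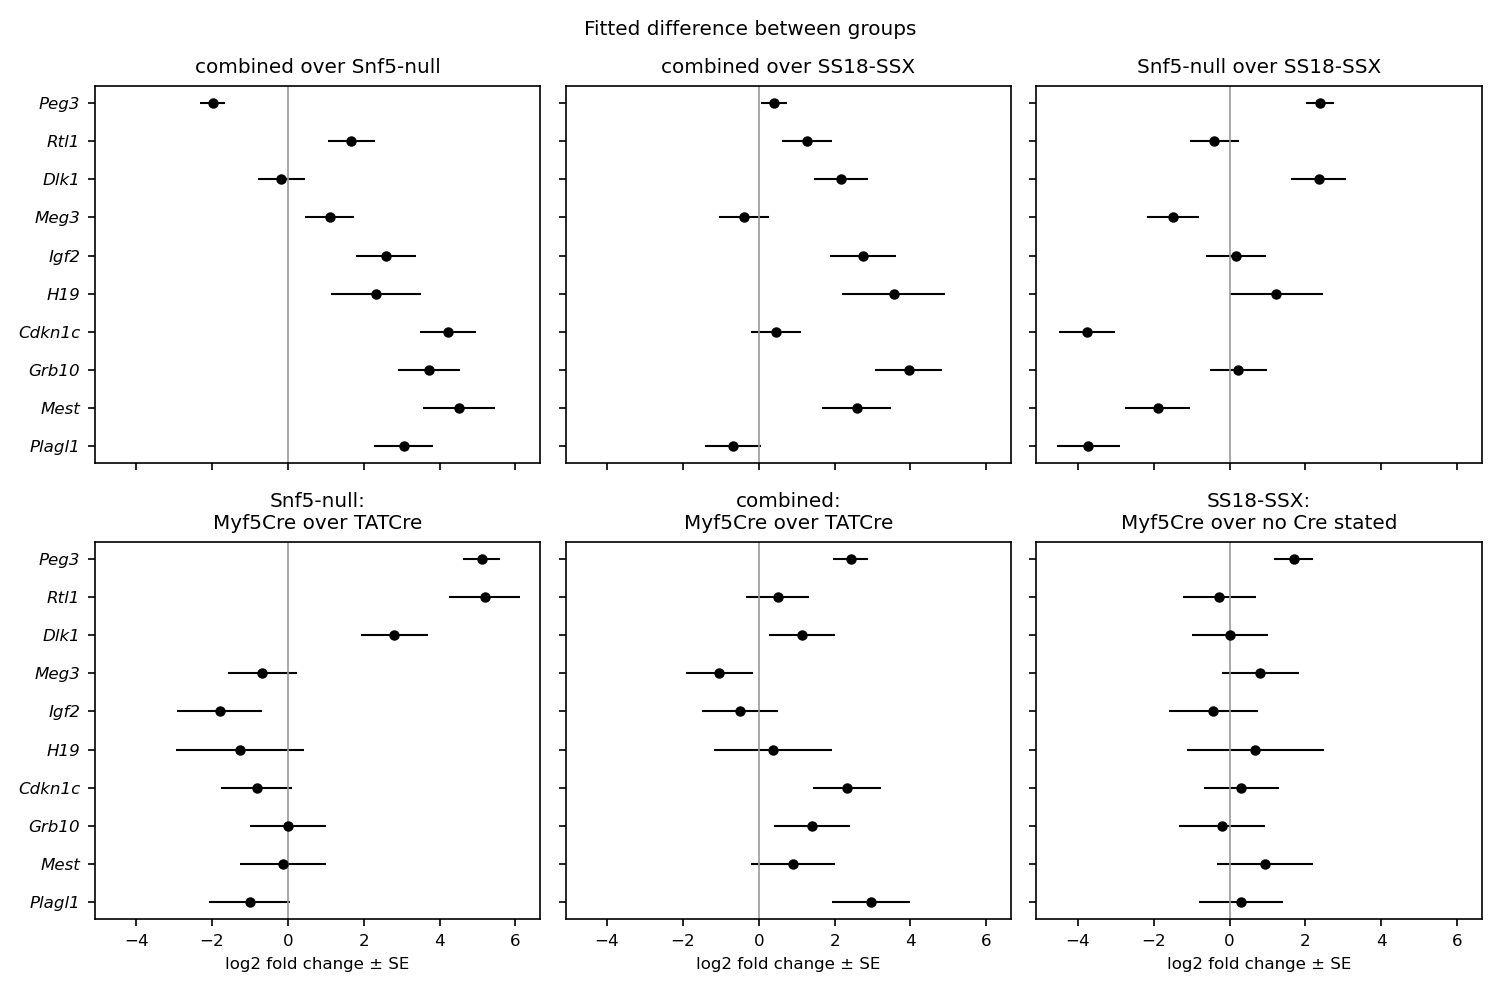
Log2 fold change of each gene with its standard error, from 1 edgeR model of 22 libraries, in 6 comparisons. Peg3 lies right of 0 in all 3 lower panels (5.11, 2.43 and 1.69), and Mest, Cdkn1c, Grb10 and Plagl1 lie between 3.05 and 4.50 in combined over Snf5-null tumours.

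Counts of the 10 genes past an edgeR adjusted p of 0.05 are given beside the share of all 18929 tested genes, for the record only, because the genes were chosen on these contrasts. In combined over Snf5-null tumours 6 were higher and 1 lower, where 29.1% and 20.5% of all tested genes were. In combined over SS18-SSX tumours 5 were higher and 0 lower (23.1% and 21.9% of all), and in Snf5-null over SS18-SSX tumours 2 were higher and 2 lower (22.3% and 25.9%). For Myf5Cre over TATCre 2 were higher and 0 lower in Snf5-null tumours (1.78% and 3.19% of all), and 1 was higher and 0 lower in combined tumours (0.571% and 1.25%). Between the SS18-SSX groups 0 were past it with edgeR, against 1.25% higher and 0.866% lower of all genes, with 1 of 10 at an unadjusted p below 0.05 and 1 called by DESeq2. The ranges of CPM did not overlap for 1 gene in combined over Snf5-null, 0 in combined over SS18-SSX and 1 in Snf5-null over SS18-SSX tumours, beside 9.33%, 8.38% and 18.3% of all tested genes. They did not overlap for 3 genes between Myf5Cre and TATCre in Snf5-null tumours, 3 in combined tumours and 1 between the SS18-SSX groups, beside 17.0%, 7.94% and 17.3%. The median log2 fold change of the 10 genes was 2.46, 1.73, -0.12, -0.39, 1.02 and 0.31 in these 6 comparisons in the same order, and that of all tested genes 0.23, -0.09, -0.06, -0.05, -0.06 and 0.09.

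Whether genes of a pair moved together within groups was measured on departures of log2 CPM from the group mean over 22 libraries. The 10 pairs were set by the same or a neighbouring cluster and by known regulation. None of the 10 pairs passed after Benjamini-Hochberg adjustment in a permutation test within groups. Igf2 and H19 had r = 0.64 (permutation p = 0.00925, adjusted p = 0.0925; Spearman rho 0.56, permutation p = 0.0189), with r = 0.74 without the 2 libraries farthest from the median of Igf2, and 18 of 22 libraries lay on the same side of their group means for both genes. Dlk1 and Meg3 had r = 0.64 (permutation p = 0.0336, adjusted p = 0.105; rho 0.49, permutation p = 0.0655), falling to 0.55 without the 2 farthest libraries. H19 and Cdkn1c had r = 0.57 (permutation p = 0.0225, adjusted p = 0.105; rho 0.42, permutation p = 0.0784), with 0.53 without the 2 farthest. Plagl1 and Dlk1 had r = 0.54 (permutation p = 0.042, adjusted p = 0.105; rho 0.55, permutation p = 0.0264), with 0.34 without the 2 farthest libraries. Plagl1 against Cdkn1c gave r = -0.42 (permutation p = 0.0936, adjusted p = 0.187; rho -0.49, permutation p = 0.0517), and the other 5 pairs had adjusted p of 0.466 to 0.987. Some pairs on different chromosomes, which were not tested, had a higher r than any of the 10. These were Cdkn1c with Grb10 (0.73), H19 with Grb10 (0.67) and Peg3 with Mest (0.66), so a high r was not particular to genes of a shared cluster. Leaving out N49 of combined TATCre gave r = 0.82 for Igf2 with H19 and 0.81 for Igf2 with Cdkn1c. Leaving out N381 gave 0.78 for H19 with Cdkn1c. These 3 passed the adjusted threshold. They were the only passes among the 10 pairs when each of the 22 libraries was left out in turn and in the other alternatives run.

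Other imprinted genes were called in both directions. Of 66 on a list drawn from the literature on mouse imprinting, 57 were tested, and 19 rose and 17 fell in combined over Snf5-null, 15 rose and 12 fell in combined over SS18-SSX, and 21 rose and 15 fell in Snf5-null over SS18-SSX tumours. Over all tested genes the shares higher and lower were 29.1% and 20.5%, 23.1% and 21.9%, and 22.3% and 25.9% in the same order, and the median log2 fold changes of the list were 0.02, 0.09 and 0.12. No test set the list apart from all genes. Atp10a, a lipid flippase gene of the Prader-Willi region, fell to 3.20 ± 2.24 CPM in combined, against 138 ± 69.7 CPM in Snf5-null tumours (SD, n = 8 each, log2 fold change -5.37 ± 0.43, edgeR adjusted p = 5.84e-08). Gatm, the gene of the first enzyme of creatine synthesis, fell to 6.88 ± 2.71 CPM, against 303 ± 353 CPM in the same tumours (log2 fold change -5.53 ± 0.70, edgeR adjusted p = 6.67e-06). Zdbf2 also fell to 3.12 ± 5.40 CPM, against 94.1 ± 178 CPM (log2 fold change -5.99 ± 1.49, edgeR adjusted p = 0.00312), with overlapping ranges, and was -3.16 without N1 and -5.13 without N30 of the Snf5-null groups and -3.76 and no longer called among Myf5Cre groups. Without N1 the Gatm change was -4.80. Klf14, a transcription factor gene 207.6 kb from Mest, rose to 152 ± 71.2 CPM in combined, against 0.649 ± 1.06 CPM in SS18-SSX tumours (SD, n = 8 and 6, log2 fold change 8.57 ± 1.59, edgeR adjusted p = 0.000402). Magel2 rose in the same comparison (log2 fold change 5.44 ± 1.29, edgeR adjusted p = 0.00249), while Slc22a18 and Airn fell (-2.25 ± 0.65 and -2.01 ± 0.51, edgeR adjusted p = 0.00935 and 0.00391). Slc22a18 had at most 7 counts in any combined library and 29 in any SS18-SSX library, so its fold rests on few counts. Ranges overlapped for each of Klf14, Magel2, Slc22a18 and Airn. Klf14 stood at 1.90 CPM in N49 of combined TATCre and at 2.75 CPM in N460 of SS18-SSX Myf5Cre. Without N381 the Airn change was -0.95 and not called, and among TATCre groups alone (SS18-SSX with no Cre stated) the Airn (-1.96), Slc22a18 (-1.52) and Magel2 (3.49) calls were lost. The Magel2 change was 4.40 without 78774 and 8.09 without N428, and that of Klf14 was 9.52 without N460 and 9.50 without A.

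Within the clusters of the 10 genes the neighbours were not uniform. These neighbours share clusters with genes chosen on the same groups. Rian, Mirg, Dio3 and Kcnq1ot1 were also named after their values were seen. Tests of the neighbours are therefore not independent of the choice of the 10 genes. Rian, a noncoding RNA 32.2 kb from Meg3, rose to 1209 ± 814 CPM in combined tumours, against 445 ± 246 CPM in Snf5-null and 538 ± 173 CPM in SS18-SSX tumours (SD, n = 8, 8 and 6), with log2 fold changes of 1.64 ± 0.40 over Snf5-null (edgeR adjusted p = 0.00269) and 1.15 ± 0.42 over SS18-SSX tumours (edgeR adjusted p = 0.0324). Mirg and Dio3, the deiodinase gene at the far end of the cluster, rose in combined over Snf5-null tumours by 1.53 ± 0.51 and 2.20 ± 0.70 (edgeR adjusted p = 0.0189 and 0.0152) and fell in Snf5-null over SS18-SSX tumours, with -1.36 ± 0.53 and -2.37 ± 0.74 (edgeR adjusted p = 0.0420 and 0.0128). The Rian call over SS18-SSX tumours was lost without N3, 78780, N428, N460, A or B (0.95 to 1.18) and within either set of Cre groups (0.63 and 1.68). Both Mirg calls were lost without N4 of combined Myf5Cre, N30 or N31 (1.28 to 1.35 and -1.20 to -1.08), and the second also without any 1 of the SS18-SSX libraries (-1.37 to -1.01), N1 of combined Myf5Cre (-1.20) or N33, N49, N43R or N51 of the Snf5-null groups (-1.42 to -1.33). The Dio3 rise was lost without 78777, N30 or N33 (1.46, 2.06 and 1.91), and both Dio3 calls were lost among TATCre groups, where the rise was 1.26. Phlda2, a growth restrainer 40.5 kb from Cdkn1c, had at most 1 count in any Snf5-null library, against at most 29 in combined and 217 in SS18-SSX libraries. Its levels were 0.848 ± 0.501 CPM in combined, 0.0230 ± 0.0318 CPM in Snf5-null and 2.61 ± 2.74 CPM in SS18-SSX tumours (SD, n = 8, 8 and 6). Both differences from Snf5-null tumours passed (edgeR adjusted p = 0.000112 and 1.34e-05), and no fold is given for so few counts. Kcnq1ot1, the noncoding RNA of that cluster, fell in Snf5-null over SS18-SSX tumours (log2 fold change -1.58 ± 0.38, edgeR adjusted p = 0.00255), with -0.90 without N381. Nap1l5 was likewise low in Snf5-null tumours, at 0.0728 ± 0.0919 CPM, against 3.25 ± 0.948 CPM in SS18-SSX tumours (SD, n = 8 and 6, edgeR adjusted p = 3.98e-05). Sfmbt2, a Polycomb-related gene, fell to 2.49 ± 0.694 CPM in Snf5-null, against 16.8 ± 11.2 CPM in SS18-SSX tumours (SD, n = 8 and 6, log2 fold change -2.73 ± 0.56, edgeR adjusted p = 0.000681). Calcr, in the same list, stood at 113 ± 181 CPM in Snf5-null tumours and at no more than 3 counts in any SS18-SSX library (edgeR adjusted p = 5.99e-05).

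Between the Cre labels 4 other imprinted genes rose and 2 fell of 57 in Snf5-null tumours, where 1.78% and 3.19% of all tested genes did, and 3 rose and 0 fell in combined tumours, where 0.571% and 1.25% did. In Snf5-null tumours these were Usp29, Zim1, Asb4 and Calcr, the last at 284 ± 210.5 CPM with Myf5Cre and 10.3 ± 13.1 CPM with TATCre (SD, n = 3 and 5, log2 fold change 4.79 ± 1.28, edgeR adjusted p = 0.0375). Asb4 rose in both, to 194 ± 145 CPM with Myf5Cre (SD, n = 3), against 2.88 ± 3.83 CPM with TATCre (n = 5), in Snf5-null tumours (log2 fold change 6.07 ± 1.35, edgeR adjusted p = 0.0158), and by 5.75 ± 1.46 in combined tumours (edgeR adjusted p = 0.0491). Ndn, a growth suppressor of the Prader-Willi region, rose by 3.56 ± 0.85 in combined tumours (edgeR adjusted p = 0.0391). Snrpn and Zrsr1 fell in Snf5-null tumours (log2 fold changes -2.34 ± 0.46 and -1.33 ± 0.24, edgeR adjusted p = 0.00903 and 0.00536). Between the SS18-SSX groups 3 rose and 1 fell, namely Ppp1r9a, Sgce and Zrsr1 (4.35 ± 1.03, 4.30 ± 0.91 and 1.07 ± 0.26, edgeR adjusted p = 0.0346, 0.0217 and 0.0381) and Trappc9 (-1.04 ± 0.21, edgeR adjusted p = 0.0161). In combined tumours the Asb4 call was lost without any 1 of the 8 libraries (5.15 to 6.37) and the Ndn call without any of them but 78774 (3.08 to 3.86). In Snf5-null tumours the Asb4 call was lost without N31 or N33 (5.60 and 5.86), and it was 7.38 without N49. The Calcr call there was lost without N31, N33, N49, N43L or N43R (4.31 to 5.08), and was 5.81 without N51, and that of Zrsr1 was lost without N33 (-1.28). Between the SS18-SSX groups, where 1.25% and 0.866% of all genes were called higher and lower, the Ppp1r9a call was lost without N428, N460, A or B (3.37 to 4.46), that of Sgce without N460, A or B (3.11 to 4.41) and that of Trappc9 without N428, A or B (-1.05 to -0.93). The Zrsr1 call there was lost without any 1 of the 6 SS18-SSX libraries (0.86 to 1.29) and without any 1 of 9 libraries of the other genotypes (at most 1.07).

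The IGF axis and paralogues of the 10 genes were a separate list of 25, of which 22 were tested. In combined over Snf5-null tumours 7 rose and 6 fell, in combined over SS18-SSX tumours 6 rose and 4 fell, and in Snf5-null over SS18-SSX tumours 5 rose and 7 fell. As shares of 22 these stand beside 29.1% and 20.5%, 23.1% and 21.9%, and 22.3% and 25.9% of all tested genes, with no test that sets the list apart. Igf1r, the receptor through which Igf2 signals, rose to 529 ± 332 CPM in combined, against 59.9 ± 33.2 CPM in SS18-SSX tumours (SD, n = 8 and 6, log2 fold change 3.18 ± 0.49, edgeR adjusted p = 0.0001), with no overlap. It also rose in Snf5-null over SS18-SSX tumours (2.04 ± 0.47, edgeR adjusted p = 0.00158) and was called higher in combined over Snf5-null tumours (1.14 ± 0.42, edgeR adjusted p = 0.0300). That last Igf1r value was -0.01 among Myf5Cre groups and 2.28 among TATCre groups, and its call was lost without N1 or N4 of combined Myf5Cre, N49 of combined TATCre, any of the 3 Snf5-null Myf5Cre libraries, or N381, N460, A, B or N2 of the SS18-SSX groups (0.82 to 1.14). The rise over SS18-SSX tumours in Snf5-null tumours was not called among TATCre groups alone (1.37). Igf2r, which clears Igf2, fell to 152 ± 40.8 CPM in combined, against 392 ± 188 CPM in Snf5-null tumours (SD, n = 8 each, log2 fold change -1.41 ± 0.26, edgeR adjusted p = 0.000291). The Igf2r level in SS18-SSX tumours was 137 ± 29.4 CPM (SD, n = 6), and Igf2r, itself imprinted, also counts among the other imprinted genes above. The leucocyte marker sum was likewise highest in Snf5-null tumours, at 639 to 2605 CPM, and its part in the Igf2r difference was not tested.

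Between the Cre labels 1 of the 22 genes rose and 2 fell in Snf5-null tumours, where 1.78% and 3.19% of all tested genes did, and 1 rose and 1 fell in combined tumours, where 0.571% and 1.25% did. Igfbp6, a carrier that prefers Igf2, averaged 3.22 ± 1.80 CPM with Myf5Cre (SD, n = 3) and 649 ± 416 CPM with TATCre (n = 5) in Snf5-null tumours (log2 fold change -7.65 ± 1.07, edgeR adjusted p = 0.000867). It fell to 0.717 ± 0.457 CPM in combined tumours (SD, n = 8), with log2 fold changes of -5.97 ± 0.64 over Snf5-null and -3.18 ± 0.60 over SS18-SSX tumours (edgeR adjusted p = 1.16e-06 and 0.000471). Its rise in Snf5-null over SS18-SSX tumours, 2.79 ± 0.61 (edgeR adjusted p = 0.00107), turned to -1.41 among Myf5Cre groups alone. Combined over Snf5-null was -2.01 and not called for Igfbp6 among Myf5Cre groups and -9.93 among TATCre groups. Without N381 the Igfbp6 changes over SS18-SSX tumours were -2.54 in combined and 3.58 in Snf5-null tumours. Pappa2, a protease that frees IGFs from their carriers, rose to 60.9 ± 37.9 CPM with Myf5Cre, against 2.93 ± 1.10 CPM with TATCre in combined tumours (SD, n = 4 each, log2 fold change 4.38 ± 0.90, edgeR adjusted p = 0.0202). It rose over SS18-SSX tumours in combined (3.31 ± 0.69) and in Snf5-null tumours (3.07 ± 0.69, edgeR adjusted p = 0.00104 and 0.00133), with 4.12 and 4.02 without N381 and, in Snf5-null tumours, 2.36 without N30. The Pappa2 rise with Myf5Cre was lost without N4 or N49 of the combined groups (3.86 and 4.37), and its rise in combined over SS18-SSX tumours was lost among TATCre groups (2.04). Igfbp4 fell to 165 ± 76.4 CPM, against 1473 ± 1288 CPM in the same Cre groups (SD, n = 4 each, log2 fold change -3.16 ± 0.65, edgeR adjusted p = 0.0205), and in Snf5-null tumours 1 gene of the list rose with Myf5Cre, Igf1r (2.04 ± 0.58, edgeR adjusted p = 0.0466), and 2 fell, Igfbp6 and Igfbp3 (-1.44 ± 0.40, edgeR adjusted p = 0.0456 for Igfbp3). The Igf1r call was lost without any 1 of 7 of the 8 Snf5-null libraries, all but N1 (1.80 to 2.25), with N43L and N43R summed (1.87), and without any 1 of 7 libraries of the other genotypes (2.04 to 2.05). That of Igfbp3 was lost without N30, N31, N33, N49, N43R or N51 (-1.53 to -1.04) and without any 1 of 9 libraries of the other genotypes (-1.44 to -1.43), and that of Igfbp4 without N2, N3, N4 or N49 of the combined groups (-3.12 to -2.31). Of the paralogues, Plag1 fell in both kinds of tumour that lacked Snf5 against SS18-SSX tumours, with log2 fold changes of -3.27 ± 0.81 in combined and -3.44 ± 0.86 in Snf5-null tumours (edgeR adjusted p = 0.00353 and 0.00304), and -2.34 and -2.40 without N381. Without N49 of combined TATCre the first was -3.97, and among TATCre groups alone the second was not called (-2.59). Grb7 had at most 2 counts in any Snf5-null library, against 3.15 ± 5.79 CPM in combined and 5.52 ± 4.71 CPM in SS18-SSX tumours (SD, n = 8 and 6, edgeR adjusted p = 0.000781 and 0.000332 against Snf5-null tumours). Of messenger RNA binders that act on Igf2, Igf2bp1 rose and Igf2bp2 fell in combined tumours over Snf5-null tumours (3.39 ± 1.24 and -2.50 ± 0.97, edgeR adjusted p = 0.0300 and 0.0387) and over SS18-SSX tumours (4.09 ± 1.39 and -4.15 ± 1.05, edgeR adjusted p = 0.0229 and 0.00391), with overlapping ranges in each. Over Snf5-null tumours the Igf2bp2 call was lost among Myf5Cre groups (-0.59), with 3 genotypes in place of 6 groups (-1.44), and without N1 of Snf5-null TATCre (-1.33), N2, N3, N49, 78774 or 78780 of the combined groups or N31 or N33 (-2.62 to -2.30), and was -3.23 without N1 of combined Myf5Cre. That of Igf2bp1 was lost among Myf5Cre groups (2.22) and without N1, N2 or 78777 of the combined groups, N31 or N33 (2.87 to 3.14), and was 5.42 without N30 and 4.34 without N1 of Snf5-null TATCre. Over SS18-SSX tumours the Igf2bp1 call was lost without N381, N460, A or N2 (3.81 to 4.03), was 4.85 without N428, and was lost within either set of Cre groups (3.29 and 4.89), and that of Igf2bp2 was lost among Myf5Cre groups (-2.24). Igfbp2 rose and Pappa fell in combined over Snf5-null tumours (2.55 ± 0.68 and -2.71 ± 0.66, edgeR adjusted p = 0.00517 and 0.00281). The Igfbp2 call was lost among TATCre groups (0.98) and with 3 genotypes in place of 6 groups (1.71), and that of Pappa among Myf5Cre groups (-2.16). Between the SS18-SSX groups 0 of 22 passed with edgeR, 2 of them at an unadjusted p below 0.05, and 0 with DESeq2.

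Genes that write, keep or erase methylation at imprinted regions were the third list, 15 genes of which 13 were tested. In combined over Snf5-null tumours 7 rose and 0 fell, where 29.1% and 20.5% of all tested genes did. Tet1, which oxidises methylated cytosine, rose to 40.3 ± 24.9 CPM, against 6.01 ± 3.37 CPM (SD, n = 8 each, log2 fold change 2.80 ± 0.50, edgeR adjusted p = 0.000229). Zfp57, the zinc finger protein that holds marks at imprinted control regions, rose by 1.64 ± 0.45 (edgeR adjusted p = 0.00631), and the methyltransferase gene Dnmt3b by 1.48 ± 0.26 (edgeR adjusted p = 0.000161). The Zfp57 call was lost within either set of Cre groups alone (1.75 and 1.52). In Snf5-null over SS18-SSX tumours 0 rose and 6 fell, where 22.3% and 25.9% of all genes did, led by Tet1 at 6.01 ± 3.37 CPM in Snf5-null and 106 ± 45.4 CPM in SS18-SSX tumours (SD, n = 8 and 6, log2 fold change -4.19 ± 0.56, edgeR adjusted p = 1.32e-05), with no overlap. Tet3 and Dnmt3a fell too (-1.62 ± 0.24 and -1.59 ± 0.32, edgeR adjusted p = 3.11e-05 and 0.000606). In combined over SS18-SSX tumours, where 23.1% and 21.9% of all genes were called higher and lower, 2 rose, Uhrf1 (1.19 ± 0.38) and Trim28 (0.60 ± 0.23, edgeR adjusted p = 0.0169 and 0.0424), and 2 fell, Tet1 (-1.39 ± 0.48) and Tet3 (-1.20 ± 0.23, edgeR adjusted p = 0.0253 and 0.000515). The Tet1 call there was lost without N3 of combined Myf5Cre, N460 or N2 of the SS18-SSX groups (-1.31 to -1.16) and within either set of Cre groups alone. The Trim28 call was lost with RLE scaling (0.52), without the filter (0.45), with 3 genotypes (0.59), among TATCre groups (0.14) and without N1, N3, N4, 78774 or 78777 of the combined groups, any of the 3 Snf5-null Myf5Cre libraries, N381, A or N2 (0.40 to 0.60). That of Uhrf1 was lost among TATCre groups (0.65) and with 3 genotypes (1.12), and that of Tet3 among Myf5Cre groups (-0.62). Between the Cre labels Dnmt1, the methyltransferase that copies marks at replication, rose to 243 ± 35 CPM with Myf5Cre (SD, n = 3), against 100.1 ± 19.2 CPM with TATCre (n = 5), in Snf5-null tumours (log2 fold change 1.28 ± 0.34, edgeR adjusted p = 0.0371), a call lost with N43L and N43R summed (1.24) and without N30, N31, N33, N49, N43L or N43R (1.19 to 1.39). In combined tumours 0 of 13 passed between the Cre labels with edgeR, 2 at an unadjusted p below 0.05, and 1 with DESeq2, and between the SS18-SSX groups 0 passed by any of these measures.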

How the data were processed

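RNA of 22 mouse tumours was sequenced after poly(A) selection with a stranded kit, per the labels' protocols. The authors deposited 1 table of raw read counts per Ensembl gene; per the submitters' processing notes the build was mm10 and the tools included STAR 2.7.5a, RSEM, featureCounts, cutadapt and DESeq2, with no role stated for any. Of 48440 gene IDs, 48058 matched a symbol and position in GENCODE M21 (GRCm38). From the counts, edgeR 4.0.16 (R 4.3.3) was run with TMM scaling on the 18929 genes that passed filterByExpr, which hold 99.91% of counts. A quasi-likelihood model with 1 mean for each of the 6 groups gave all contrasts, and a genotype was taken as the mean of its 2 Cre groups. Adjusted p-values are Benjamini-Hochberg values over all tested genes, with a threshold of 0.05. A standard error is the log2 fold change divided by the root of its F statistic. The script was tested on simulated data. Correlations used 100000 permutations within groups. From each list the 3 called genes with the largest change in each direction and comparison were named; others, mostly neighbours of the 10 genes, were named after their values were seen. The members and lists were chosen with earlier results of these data known. Alternatives were DESeq2 1.42.0, RLE scaling, no filter, 3 genotypes in place of 6 groups, each Cre set alone, N43L and N43R summed, and leaving out each library.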

Additional observations from a re-analysis of the deposited data

Results flagged for a closer look

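Of 30 combinations of a gene and a group with 4 or 5 libraries, 2 held a library past the 95% level of Dixon's test. Both were H19. That level flags about 1 in 20 by chance when genes are not chosen on their values. These genes were chosen on the same CPM, so that rate does not apply. The level served only to pick libraries to describe, and the flags are not a test result. In the combined TATCre group, 78780 stood at 5599 CPM and the other 3 libraries at 94.2 to 181 CPM. In the Snf5-null TATCre group, N1 stood at 2095 CPM and the other 4 at 72.8 to 183 CPM. The same libraries had the highest sums of the 5 myogenic progenitor markers in their groups, 378 and 2214 CPM. They did not have the highest sums of the 8 mature muscle markers, at 309 and 2055 CPM. In combined Myf5Cre libraries, all high in H19, the progenitor sum was 7.53 to 72.6 CPM. The part of these markers in the H19 level was not tested.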

How the results depend on the processing

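No paired analysis was possible because each pair of the 6 groups shares at most 1 tag. Combined and Snf5-null tumours as a whole share N1 and N49, but N1 has another Cre label in each, and with the tag as a block no residual degrees of freedom are left. Among Myf5Cre groups alone the log2 fold change of Rtl1 in combined over Snf5-null turned to -0.68 (main 1.67) and that of Igfbp6 in Snf5-null over SS18-SSX to -1.41 (main 2.79), and that of Igf1r in combined over Snf5-null was -0.01 (main 1.14). Within Myf5Cre groups alone, calls numbered 2 in place of 5 among the 10 genes and 4 in place of 10 in the IGF list for combined over SS18-SSX. There the IGF list gave 8 in place of 13 and the maintenance list 4 in place of 7 for combined over Snf5-null, and the other imprinted genes 23 in place of 36 for Snf5-null over SS18-SSX. Within TATCre groups alone (SS18-SSX with no Cre stated), the 10 genes gave 4 in place of 7 for combined over Snf5-null and 0 in place of 5 for combined over SS18-SSX. For combined over SS18-SSX the maintenance list gave 1 in place of 4 and the other imprinted genes 13 in place of 27. The fit itself still held all 22 libraries, and only the groups set against each other changed, so fewer libraries bear on each difference. With 3 genotypes in place of 6 groups the maintenance list gave 2 in place of 4 there. With DESeq2, calls among the 10 genes were 2 in place of 1 between Cre labels in combined tumours and 1 in place of 0 between SS18-SSX groups, and among other imprinted genes 9 in place of 3 and 9 in place of 4. Other imprinted genes gave 1 in place of 3 in combined tumours with N43L and N43R summed and 2 in place of 4 between SS18-SSX groups without the filter. Where no cause is named it was not tested.

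Leaving out 1 library at a time, calls for combined over SS18-SSX ranged from 3 (without B) to 5 among the 10 genes, from 6 (without N2 of the no Cre group) to 13 in the IGF list and from 2 (without N3) to 6 in the maintenance list. Between Cre labels in combined tumours they ranged from 1 to 2 (without 78780) among the 10 genes and from 0 (without N1, N2, N3, N4 or N49) to 5 (without 78774) among other imprinted genes. In Snf5-null tumours the other imprinted genes gave 2 (without N33) to 9, and between SS18-SSX groups 0 (without A or B) to 6. Within-group r ranged from 0.56 to 0.82 for Igf2 with H19, from 0.27 to 0.81 for Igf2 with Cdkn1c and from 0.31 to 0.78 for H19 with Cdkn1c. Over all genes, DESeq2 called 2256 in place of 940 between Cre labels in Snf5-null, 1463 in place of 344 in combined tumours and 1371 in place of 400 between SS18-SSX groups, the last 115 without the filter. With N43L and N43R summed the same 3 counts were 559, 206 and 280. Combined over Snf5-null gave 9383 calls, against 5883 within Myf5Cre and 6045 within TATCre groups alone, and combined over SS18-SSX 8518, against 4542 within TATCre groups alone. RLE scaling moved the median of all genes in combined over Snf5-null by -0.115 (log2) and the share of higher calls to 51.2% from 58.7%.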
